A study of Drosophila melanogaster with 3 samples.

Results

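The yolk protein genes Yp1, Yp2 and Yp3 of Drosophila melanogaster encode the main proteins of egg yolk. For these 3 genes, the sites occupied by Traffic jam were taken from the reproducible peak list as every summit from 20 kb before to 20 kb after each gene. That gave 30 summits, out of 10688 in the whole list, and the region shared by Yp1 and Yp2 was counted once. They lay in 24 peak regions that differ in start or end, some of which overlapped around Yp3. Traffic jam (tj) is a transcription factor of the large Maf family that is known from the somatic cells of the ovary and testis. It was measured by chromatin immunoprecipitation with an antibody against GFP in adult females of 1 transgenic line, in which tj carries eGFP at its C terminus, and whole flies of unknown age were used. There was 1 group of 3 biological replicates, with chromatin sheared to 200 to 800 bp and 1 control alignment behind all 3 lists, and no other genotype or sex was compared. Nothing in the labels says whether the replicates came from separate crosses or cultures, so the spread between them may be partly technical.

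Yolk proteins are made by the fat body of the adult female and by the follicle cells that surround the oocyte. They are secreted, and the oocyte takes them up by endocytosis through the receptor Yolkless. Yp1 and Yp2 lie side by side and are transcribed away from each other. The sex determination factor Doublesex is known to act on a fat body enhancer between them, and the hormones ecdysone and juvenile hormone are known to influence yolk protein production. Whole flies contain fat body, ovary and all other tissues, so the number of cells with an occupied site and the occupancy in each cell cannot be told apart.

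Positions are given in dm6 (Release 6), with gene models of Ensembl release 115. Yp1 (FBgn0004045) spans X 10053811 to 10055498 on the plus strand, and Yp2 (FBgn0005391) spans X 10050951 to 10052636 on the minus strand. The facing starts of Yp1 and Yp2 are separated by 1174 bases. Yp3 (FBgn0004047) spans X 13759546 to 13761547 on the plus strand, 3.704 Mb away. The 300 bases before each gene are shown because they contain the strongest Traffic jam summit of each gene. Also shown are the 201 bases around a summit inside Cht6, the strongest in the 20 kb windows away from a yolk protein promoter. They are chrX:10053511-10053810 (plus strand) for Yp1, chrX:10052637-10052936 (minus strand) for Yp2, chrX:13759246-13759545 (plus strand) for Yp3 and chrX:10045863-10046063 (plus strand) for Cht6. All are read 5′ to 3′ from the reference genome, and none overlaps an annotated UTR or coding exon. Capitals mark TGCTGA, the first 6 letters of the Maf core TGCTGAC, on either strand, the whole 7 letters where all are present, and ACAATGT, the core of the Doublesex motif.
Yp1 upstream: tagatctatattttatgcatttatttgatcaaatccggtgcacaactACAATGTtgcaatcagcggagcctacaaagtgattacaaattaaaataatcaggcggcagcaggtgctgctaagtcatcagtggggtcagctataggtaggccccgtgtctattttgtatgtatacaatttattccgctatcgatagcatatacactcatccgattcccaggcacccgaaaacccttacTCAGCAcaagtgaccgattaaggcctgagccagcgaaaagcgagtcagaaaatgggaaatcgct
Yp2 upstream: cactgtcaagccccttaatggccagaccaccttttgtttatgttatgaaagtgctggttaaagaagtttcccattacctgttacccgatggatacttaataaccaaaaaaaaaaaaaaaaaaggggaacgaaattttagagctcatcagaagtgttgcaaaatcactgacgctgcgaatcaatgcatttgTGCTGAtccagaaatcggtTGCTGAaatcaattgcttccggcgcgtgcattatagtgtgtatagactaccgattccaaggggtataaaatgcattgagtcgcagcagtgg
Yp3 upstream: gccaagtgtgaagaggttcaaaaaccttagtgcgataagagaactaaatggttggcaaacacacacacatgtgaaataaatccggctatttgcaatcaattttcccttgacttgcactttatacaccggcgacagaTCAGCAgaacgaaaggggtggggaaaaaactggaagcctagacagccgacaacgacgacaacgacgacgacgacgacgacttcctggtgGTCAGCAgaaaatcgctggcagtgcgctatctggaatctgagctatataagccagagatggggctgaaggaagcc
Cht6 summit: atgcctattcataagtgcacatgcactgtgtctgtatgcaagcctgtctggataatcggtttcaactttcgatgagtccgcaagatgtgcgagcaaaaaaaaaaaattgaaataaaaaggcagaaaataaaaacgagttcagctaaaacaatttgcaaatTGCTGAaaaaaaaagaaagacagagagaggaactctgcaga

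At each of the 3 yolk protein promoters the summit lay on or next to a copy of TGCTGA. Its midpoint was 3 bp from the summit at Yp1, -5 bp at Yp2 and 2 bp at Yp3, counted along the plus strand. Relative to the start of each gene, the match covered bases -64 to -59 at Yp1, -110 to -105 at Yp2 and -164 to -159 at Yp3. The letters and the distance were chosen after the sequences had been seen, so these positions are a description. Over the whole list, 4.1% of the 10688 summits had TGCTGA with its midpoint within 10 bp, and so did 15 of the 100 strongest summits. Among the 30 summits around the yolk protein genes there were 4, the fourth being the summit at X 13753301 in an intron of Pdcd4. Yp2 held a second copy at -91 to -86, and the Cht6 summit had one with its midpoint 63 bp away.

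The full TGCTGAC was rarer. It was present within 100 bp of 4 of the 30 summits, against 6.84% of all summits in the list. Of the 3 promoters, that of Yp3 held it, at -75 to -69 and 91 bp from the summit, while those of Yp1 and Yp2 had no match within 100 bp. The other 3 matches were at X 13753301 in Pdcd4, at X 13766695 in an intron of rdgB and at X 10035384 in the coding sequence of Cht6. Of all 300-base promoter windows in the genome, 3.16% held TGCTGAC and 13.6% held TGCTGA. The palindromic Maf element of 14 bases, with up to 2 mismatches on either strand, was found near the rdgB summit alone, against 0.346% of all summits. A 13-base form with 2 mismatches lay at -186 to -174 before Yp1, a match present in 0.402% of promoters, and it was farther than 100 bp from that gene's summit.

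Motifs of factors known from yolk protein gene control were searched in the same windows, on both strands. ACAATGT lay at -253 to -247 before Yp1 and in neither of the other upstream windows, against 4.73% of promoters. The C/EBP motif, TTGCNNAA, occurred at -146 to -139 and at -92 to -85 before Yp2, and the latter match overlaps the second TGCTGA. That motif was present in 23.3% of promoters. The GATA motif GATAA was found before Yp3 at -267 to -263, against 55.6% of promoters. TATAAA stood at -28 to -23 before Yp2 and, on the opposite strand, at -183 to -178 before Yp3, and 48% of promoters held it. At Yp1 it lay at X 10053828 to 10053833. That is past the first start and outside the upstream window, but before a second annotated start at X 10053852. The AP-1 motif TGACTCA was near none of the 30 summits, against 2.7% of the list, and the nuclear receptor motif AGGTCA was near 2 of 30, against 3.71%.

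Signal values are the peak caller's enrichment scores, which have no stated unit, and read numbers were not among the values used, so depth is unknown. Each replicate value was therefore divided by that replicate's median over reproducible summits, so that a relative signal of 1 is a typical reproducible site. The medians were 113.6, 242.1 and 160.6 in replicates 1, 2 and 3. Every one of the 30 summits was matched within 200 bp by each of the 3 replicates, as were 10265 of all 10688 reproducible summits. The replicate lists include background, so a match can be weak, such as 0.186 in replicate 1 at X 13754959.

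Yp1 had its strongest summit at X 10053747, 64 bp before its first start and inside a peak from X 10053298 to 10054173. The signal there was 753 in replicate 1, 1561 in replicate 2 and 1179 in replicate 3, or 6.63, 6.45 and 7.34 relative to the replicate medians (mean 6.805 ± 0.471, SD, n = 3). All 3 replicates were far above a typical site, and their own summits fell within 1 bp of each other. The site ranked 130 of 10688 in the reproducible list. A second summit in the same peak region, at X 10053999 in the Yp1 coding sequence, was much weaker. Its relative signal was 0.786, 2.09 and 0.962, so replicate 2 stood apart from replicates 1 and 3, and its rank was 10140.

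Yp2 had its strongest summit at X 10052749, 113 bp before its start, in a peak from X 10052367 to 10053124. Relative signal was 6.14, 6.02 and 6.99 in replicates 1, 2 and 3 (mean 6.38 ± 0.526, SD, n = 3), from signals of 698, 1458 and 1122. The replicate summits fell within 18 bp of each other, and the site ranked 163. The Yp1 and Yp2 promoter sites were therefore separate summits in separate peak regions at opposite ends of the shared intergenic stretch. No other reproducible summit lay between their starts. A weak summit at X 10050948, just past the 3′ end of Yp2, had a mean relative signal of 0.716 ± 0.142 (SD, n = 3).

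**Figure D1:**
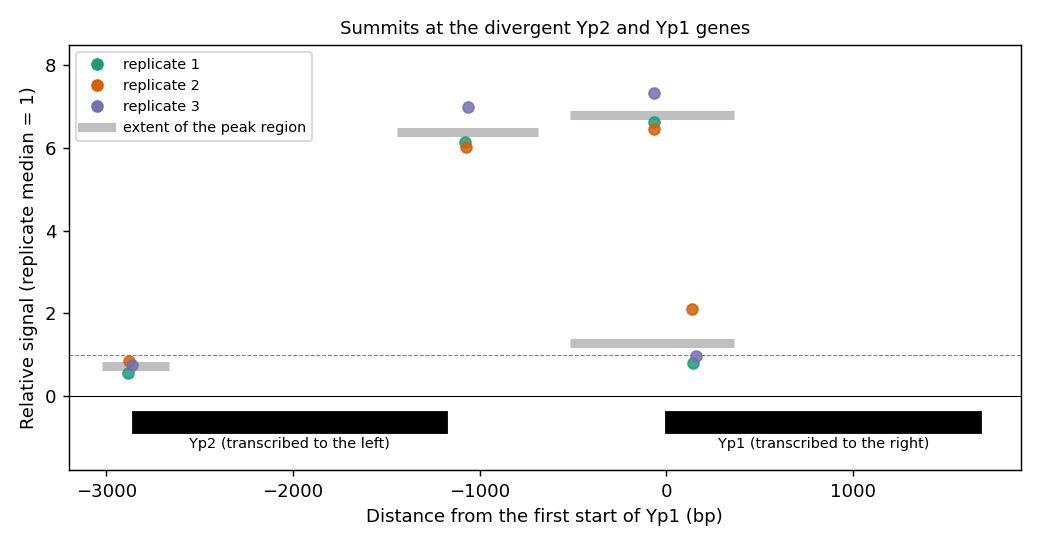
Relative signal (y axis, replicate median = 1) against distance from the first start of Yp1 in bp (x axis) at the divergent Yp2 and Yp1 genes. Points are the 3 replicates at their own summits, and grey bars are the peak extents at the mean; the upper points, 6.02 to 7.34, are the 2 promoter sites, and the lower ones, 0.559 to 2.09, lie past the end of Yp2 and in Yp1.

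Yp3 had the strongest site of the 3 genes, at X 13759383, 163 bp before its start in a peak from X 13758688 to 13759951. Signal was 1168, 2751 and 1999, which gave relative signals of 10.3, 11.4 and 12.4 (mean 11.4 ± 1.08, SD, n = 3). The replicate summits fell within 2 bp of each other. The site ranked 16 of 10688 in the reproducible list, and 27, 16 and 24 in the replicate lists.

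Within each replicate the order of the 3 promoters was the same, Yp3 above Yp1 above Yp2. Relative signal at Yp3 was 1.67-fold that at Yp1 (log2 difference 0.74 ± 0.09, SD, n = 3; 1.55 to 1.76 in single replicates). It was 1.78-fold that at Yp2 (0.83 ± 0.09; 1.68 to 1.89). Yp1 exceeded Yp2 by 1.07-fold (0.09 ± 0.02, with 1.05 to 1.08 in single replicates). This difference was smaller than the spread of either gene's level over replicates, but larger than its own spread, taken within replicates. Each of the 3 differences had the same sign in 3 of 3 replicates. A two-sided exact sign-flip permutation test gave p = 0.25 for each, also after Benjamini-Hochberg adjustment over the 3 pairs. That is the smallest p that 3 replicates allow, so no difference could pass 0.05.

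Against all genes, 5073 of 13945 protein-coding genes (36.4%) had a reproducible summit within 1000 bp of a start, and all 3 yolk protein genes were among them. Ordered by the signal of the strongest such summit, Yp3 stood at 11, Yp1 at 73 and Yp2 at 93 of the 5073. A promoter summit as strong as that of Yp2 or stronger was found at 0.667% of protein-coding genes. That share restates the place of Yp2 and includes all 3 yolk protein genes. The median relative signal over the 4925 bound genes with a value in all 3 replicates was 1.07.

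**Figure D2:**
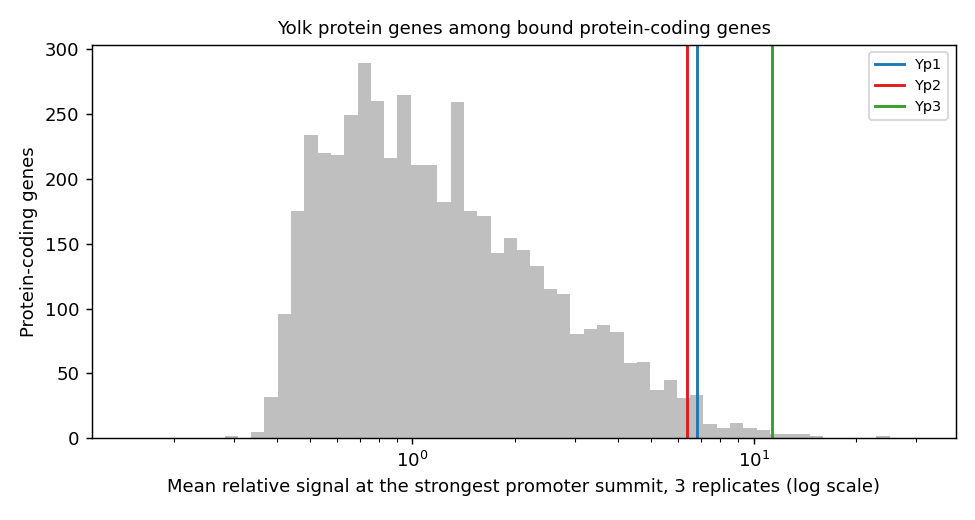
Number of protein-coding genes (y axis) by the mean relative signal of their strongest promoter summit over 3 replicates (x axis, log scale). Vertical lines mark Yp2 at 6.38, Yp1 at 6.805 and Yp3 at 11.4, all in the right tail of a distribution whose median is 1.07.

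The genes with the most similar values over the 3 replicates were found by Euclidean distance in log2 relative signal, over 4892 bound genes outside the gene lists used here. For Yp1 they were Swim (distance 0.0853), Adf1 (0.101) and Tsp74F (0.127). For Yp2 they were REPTOR (0.0656) and the neighbours Grx3 and Nnp-1 (0.0796 each), which share 1 summit. For Yp3 they were Tango5 (0.161), path (0.166) and CG17734 (0.273). The measure rests on 3 values per gene and says only that the levels were alike. The summits of Adf1 and REPTOR lie nearest to the starts of long non-coding RNA genes.

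The surroundings of the genes differed in the number of sites. The windows of Yp1 and Yp2 held the same 7 summits, and that of Yp3 held 23, against a median of 5 and quartiles of 2 and 8 over all protein-coding genes. At least 7 summits were found around 34.4% of protein-coding genes, so the count at Yp1 and Yp2 was near the background. The share of genes with at least 23 summits was not counted, and the 23 around Yp3 lay in 18 peak regions. Upstream of the Yp3 start lay 15 of its 23 summits.

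In the Yp1 and Yp2 windows the only strong site away from the promoters was at X 10045963. It lies in an intron of Cht6, a chitinase-family gene on the plus strand, and in an exon of the antisense RNA gene asRNA:CR45185. Relative signal was 5.25, 5.53 and 6.76 (mean 5.85 ± 0.803, SD, n = 3), and the site ranked 230. It was 6671 bp past the Yp2 start, in the direction of Yp2 transcription. It was below the Yp2 promoter in 3 of 3 replicates, although the ranges of the values overlapped. The other summits within Cht6, at X 10039684 and X 10035384, had mean relative signals of 1.20 ± 0.112 and 0.611 ± 0.103 (SD, n = 3), both in coding sequence. No reproducible summit fell on the Yp1 side beyond the gene, over the introns of CG15312. Of the 5 other protein-coding genes in reach of Yp1, Yp2 alone was bound within 1000 bp of a start, and the same held for Yp1 around Yp2. The share over all protein-coding genes was 36.4%.

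Around Yp3 all 7 other protein-coding genes had a promoter summit, against 36.4% of all protein-coding genes. These were Rtc1 and CG32625, which share a weak site (0.722 ± 0.171, SD, n = 3), Grip91 (1.66 ± 0.278), CG11151 (2.10 ± 0.694), Pdcd4 (3.14 ± 0.130), rdgB (3.39 ± 0.336) and CtsB (6.66 ± 1.33). None of these levels overlapped that of Yp3 in any replicate. The strongest other summit in the window was at X 13753301 in an intron of Pdcd4, a gene related to a translation inhibitor of vertebrates, with relative signals of 3.74, 5.12 and 4.88 (mean 4.58 ± 0.737, SD, n = 3). A neighbouring summit at X 13753502 took the same replicate values. The Pdcd4 promoter summit listed above (3.14 ± 0.130), at X 13754737, also lies in an intron. The gene rdgB, which encodes a phosphatidylinositol transfer protein of photoreceptors, had intronic summits at X 13766695 (3.39 ± 0.336) and X 13770968 (3.07 ± 0.304). The summit at X 13766695 is the rdgB promoter summit listed above. Between the weak Rtc1 summit at X 13757066 and the rdgB summit at X 13762795 (1.84 ± 0.118), the Yp3 promoter site stood alone. In 4 places in the Yp3 window, pairs of neighbouring reproducible summits took their value from the same replicate summit in at least 1 replicate, so such pairs are not independent.

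**Figure D3:**
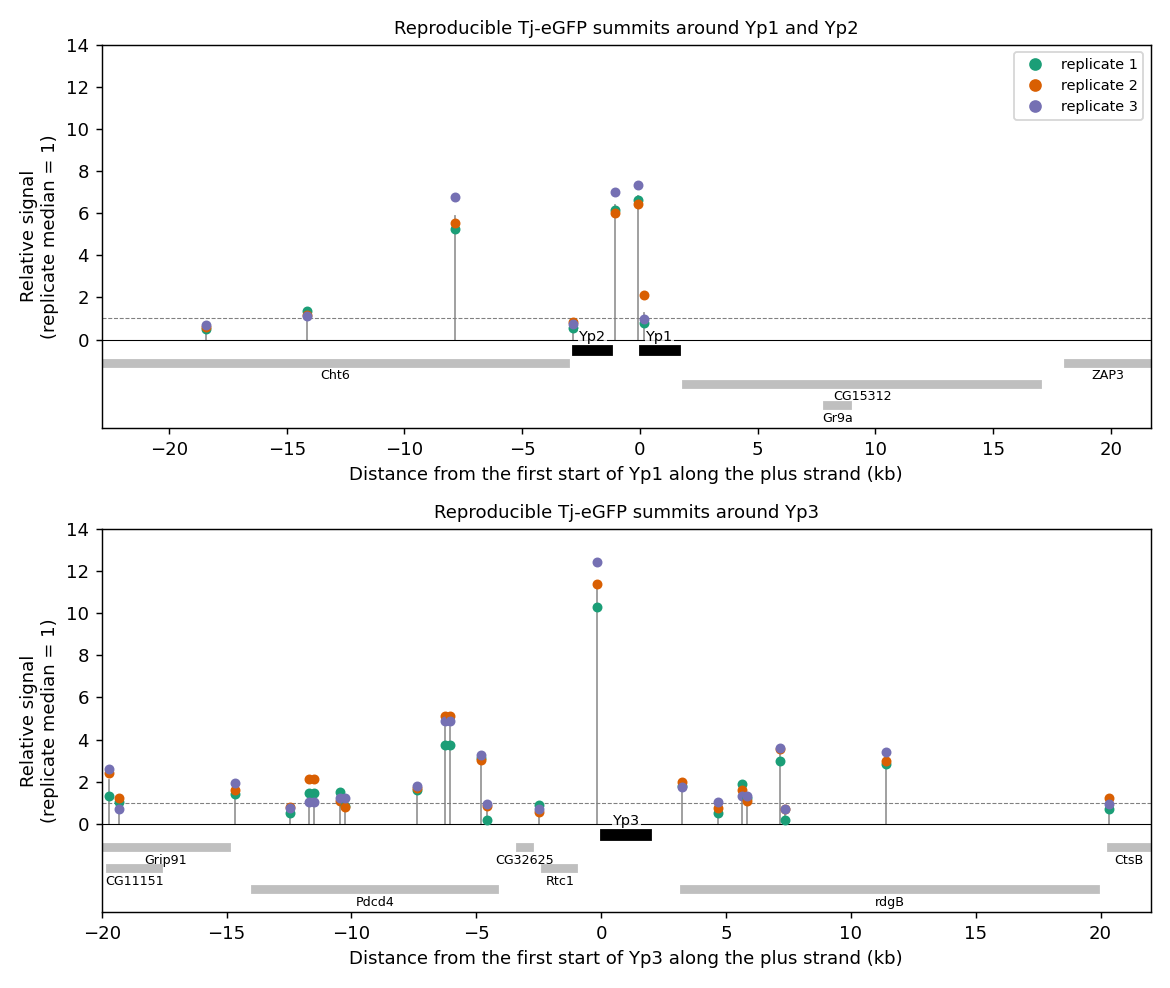
Relative signal of each reproducible summit (y axis, replicate median = 1) by distance from the first start in kb (x axis) for the shared Yp1 and Yp2 window (top) and the Yp3 window (bottom). Points are replicates, grey lines reach the mean, and bars below show protein-coding genes; the tallest sites are at the promoters, with the Cht6 site at 5.85 the only other one above 5 in its mean.

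The 20 kb limit had 1 strong site just outside it. The summit of CtsB, a cathepsin gene, lay 417 bp past the far edge of the Yp3 window and had the relative signal given above. Just inside that edge was a CtsB summit in the 3′ UTR (0.941 ± 0.274, SD, n = 3), and just inside the near edge was that of CG11151. The nearest summits outside the Yp1 and Yp2 windows had relative signals of 0.585 ± 0.0495 within Cht6 and 0.733 ± 0.124 within RhoU.

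Genes that act with the yolk proteins were listed by role, and 22 of 31 (the background is 36.4%) had a promoter summit. All 50 symbols written in the lists matched the annotation. No test of the lists was made, and with 3 replicates no gene was called stronger or weaker than another.

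Among the sex determination genes 5 of 6 were bound, against 36.4% of all protein-coding genes, with a median relative signal of 0.614. The gene tra, a splicing regulator of dsx, had no promoter summit. Sxl, the female switch gene, had the highest value, 1.63 ± 0.0906, and dsx itself had 0.484 ± 0.308 (SD, n = 3), with replicates at 0.264, 0.351 and 0.836. Fat body regulators were bound at 4 of 6, against the same 36.4%, with a median of 0.852. The GATA factor genes srp and GATAe had 1.09 ± 0.295 and 0.934 ± 0.196, slbo, a C/EBP gene, had 0.524 ± 0.236 and Aef1, a repressor of fat body enhancers, had 0.769 ± 0.221 at a summit nearest to barc, while GATAd and pnr had none.

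Of the hormone genes 6 of 7 were bound, against 36.4% of all protein-coding genes. Their median was 2.27 over those with a value in all 3 replicates, which leaves out chico. Highest was gce, a juvenile hormone receptor gene, with 5.20, 5.20 and 6.41 in the 3 replicates (mean 5.60 ± 0.702, SD, n = 3). The ecdysone receptor gene EcR had 3.78 ± 0.389, Met, the other juvenile hormone receptor gene, had 2.27 ± 0.125, usp, the partner of EcR, had 1.38 ± 0.451 and InR, the insulin receptor gene, had 1.34 ± 0.225. The juvenile hormone synthesis gene jhamt had no promoter summit. The insulin signalling adaptor gene chico lacked a value in replicate 1 and had 0.432 and 0.665 in replicates 2 and 3.

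For yolk uptake, 5 of 7 genes were bound, against 36.4% of all protein-coding genes. The median over the bound ones was 1.68. The receptor gene yl and the late endosome gene Rab7 had no promoter summit. Rab5, of early endosomes, had 2.57 ± 0.283, Chc, the clathrin heavy chain, had 1.80 ± 0.396 and boca, a chaperone for receptors of the Yolkless type, had 1.68 ± 0.489 (SD, n = 3). AP-2alpha, a clathrin adaptor subunit, had 1.12 ± 0.280 and shi, the dynamin gene, had 0.716 ± 0.134. Of the lipid carrier genes 2 of 5 were bound (40%, near the share over all protein-coding genes). The lipophorin receptor gene LpR2 had 5.34, 4.54 and 5.46 (mean 5.11 ± 0.497, SD, n = 3), Mtp lacked a value in replicate 2, and apolpp, Apoltp and LpR1 had no promoter summit.

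Eggshell protein genes, which follicle cells express, gave a second comparison. Of 10 vitelline membrane genes, 7 were bound (70%, against 36.4% of all protein-coding genes), with mean relative signals from 2.66 at Vm32E to 6.98 at Vm34Ca, and clos, fs(1)M3 and fs(1)N were not. Of 9 chorion genes, 3 were bound (33.3%, near that background), with values below a typical site, Cp7Fb at 0.663 ± 0.205, Cp38 at 0.455 ± 0.0899 and Cp7Fa at 0.419 ± 0.0197 (SD, n = 3). The median over the yolk protein genes was above that over the bound vitelline membrane genes in 3 of 3 replicates, by 1.32-fold (log2 difference 0.40 ± 0.19, SD, n = 3). It was 14.5-fold that over the bound chorion genes (log2 difference 3.86 ± 0.30; 12.7 to 18.5 in single replicates). The two-sided exact sign-flip permutation test gave p = 0.25 for both, the smallest possible. Levels of single genes overlapped between yolk and vitelline membrane genes, as Vm34Ca and Vm26Ab (6.96 ± 0.443, at a summit whose nearest start is that of CG13998) exceeded Yp1 and Yp2 in the mean, whereas every chorion value was below every yolk value.

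**Figure D4:**
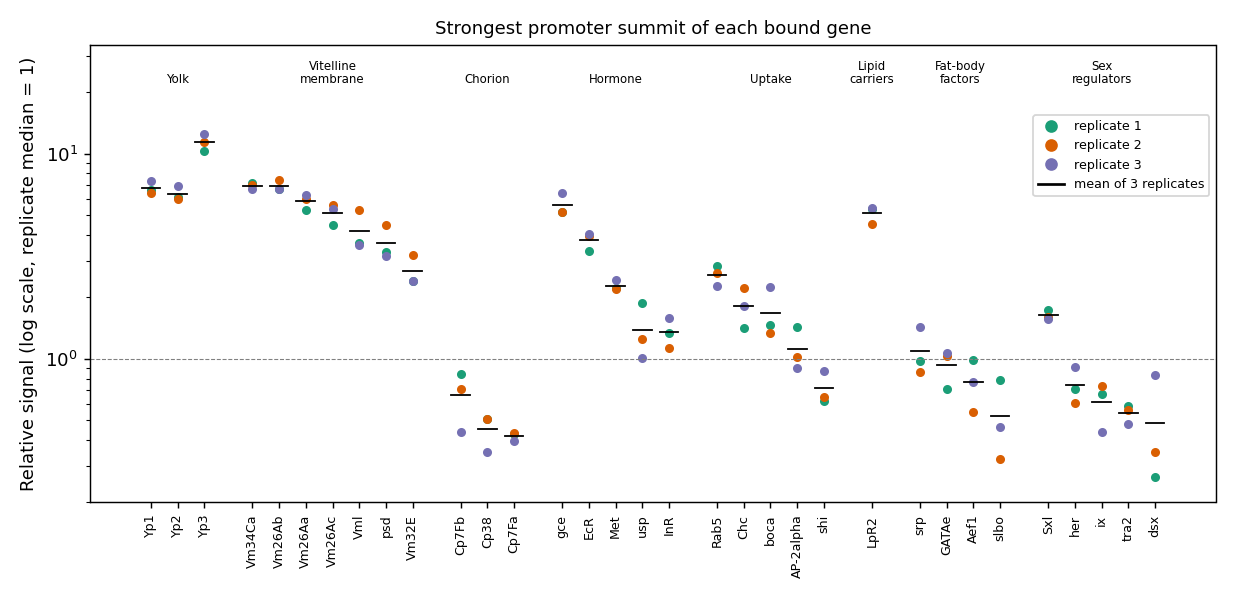
Relative signal of the strongest promoter summit (y axis, log scale) for each bound gene with a value in all 3 replicates, by gene list (x axis). Points are replicates and bars their mean; Yp3 at 11.4 is the highest, Yp1, Yp2, Vm34Ca and Vm26Ab have means between 6 and 7, and the chorion genes lie below 1.

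The 4 strongest peak regions within the 20 kb windows were those at Yp1, Yp2, Yp3 and Cht6. All their 36-base stretches occurred once in the 6 chromosome arms of the reference. Sequence outside those arms was not searched.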

How the data were processed

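Peak lists on dm6 were used, 5 in all: 1 for each of 3 replicates, 1 of the pooled replicates and 1 of reproducible summits by irreproducible discovery rate (IDR). Values are the deposited signal, an enrichment score that the authors' peak caller gave without a stated unit. The replicate lists were made from each replicate's alignments and 1 control alignment, per the descriptions deposited with the files. The sources used here name no aligner, caller, version or IDR cutoff.

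An IDR summit took the strongest replicate summit within 200 bp. Its signal was divided by that replicate's median over the 10265 IDR summits matched in all 3 replicates. Genes were called bound with an IDR summit within 1000 bp of a start (Ensembl release 115, BDGP 6.54). Differences were tested with two-sided exact sign-flip permutations over replicates. Motifs were searched within 100 bp of summits and in 300 bases before starts. Matching and tests were checked on simulated lists that each held every IDR summit. Matching was scored only at summits without a close neighbour, so close pairs and missing matches were not covered. Alternatives changed windows, peak lists, match distance, scaling and motif limits. Named genes were the 3 members, bound genes within 20 kb, genes of the lists, and the 3 most alike genes for each member. The members and gene lists were chosen with earlier results of these data known. Depth is unknown, so no interval that needs it is given. The dm3 lists were not used here. Calculations used Python 3.11.15, NumPy 2.4.6, pandas 2.3.3 and Matplotlib 3.10.9.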

Additional observations from a re-analysis of the deposited data

How the results depend on the processing

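Of 117 alternative values for 15 results, 98 were labelled the same as the main value and 19 moved. The label allowed counts a limited fold change and levels a shift below the SD over replicates. For signal differences it asked only for the same sign, whatever the size. Of the 43 for signal differences, 25 (scaling and match distance) equal the main value, and the other 18 kept their sign. The divisor cancels within a replicate, so those 25 could move only where a match setting picked another replicate summit. The 5 made with as many of the strongest pooled peaks are fixed, since those peaks are the reproducible list itself. Leaving each replicate out kept the reproducible list and dropped only summits without a match in the other replicates. The 7 summits at Yp1 and at Yp2 and the 23 at Yp3 were therefore fixed, since all were matched in all 3 replicates. The same holds for their counts among summits matched in all 3. Bound genes then numbered 4990 to 5023, and bound pathway genes 21 to 22. Smaller windows held fewer summits by construction: at Yp1 4 within 5 kb and 3 within 2 kb, at Yp2 4 within 2 kb, and at Yp3 14, 8 and 2 within 10, 5 and 2 kb. Mean relative signal without each replicate ran from 6.54 to 6.98 at Yp1, from 6.08 to 6.56 at Yp2 and from 10.8 to 11.9 at Yp3. Divided by the median of the whole replicate list, the levels were 23.8, 22.3 and 39.8 at Yp1, Yp2 and Yp3, since those lists include background. Matching within 400 bp gave 6.04 at Yp1, 5.66 at Yp2 and 10.1 at Yp3. At Yp1 matching within 50 bp gave 6.29, and the nearest summit gave 7.31. The log2 difference without each replicate ran from 0.70 to 0.79 for Yp3 and Yp1, 0.79 to 0.87 for Yp3 and Yp2, 0.08 to 0.10 for Yp1 and Yp2, 0.33 to 0.51 for yolk and vitelline membrane, and 3.69 to 3.96 for yolk and chorion genes. TGCTGAC was near 2 summits within 50 bp, and TGCTGA (chosen after seeing the data) near 8 within 100 bp, in place of 4. Those 8 were 26.7% of the 30 summits, against 19.9% of all summits in the list. The palindromic element was near 0 summits with 1 mismatch, 5 with 3, and 2 within 200 bp, in place of 1. For these settings, and for TGCTGAC within 50 bp, the share of all summits was not counted. No paired analysis between groups was possible because there was 1 group; differences between genes were taken within replicates.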

Other observations

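The pooled list held further summits around the yolk protein genes that did not pass the reproducibility threshold. Around Yp1 and Yp2 there were 14, the same ones for both genes, with signals of 50.1 to 177.9 against at least 215.6 in the reproducible list. That list consists of the strongest pooled peaks, so lower signals outside it were fixed by construction. Of the 14 summits, 5 were matched within 200 bp by each of the 3 replicates. One of these 5, at X 10055301 (signal 121), was in the Yp1 coding sequence, and 2 lay in CG15312, at X 10066718 and X 10070365, where no reproducible summit was found. Around Yp3 there were 14 such summits, with signals of 46.8 to 201.8, and 6 were listed in all 3 replicates.

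The arrangement of separate summits at both ends of a shared upstream region was compared with other divergent genes after the values had been seen. Of 2599 divergent pairs of protein-coding genes with starts at most 2000 bp apart, 115 (4.42%) had at least 2 reproducible summits between the starts. Among the 358 pairs with starts 1000 to 2000 bp apart, 27 (7.54%) did. Yp1 and Yp2 were the 1 pair whose weaker summit reached the level of the Yp2 summit, a level that this pair itself set.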
